A study of Mus musculus with 14 samples.

Results

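The creatine cycle genes described here are 8 genes of creatine synthesis, uptake and phosphorylation: Gatm, Gamt, Slc6a8, Ckb, Ckm, Ckmt1, Ckmt2 and Alpl. They were chosen by gene symbol, and each has a single row among the 24421 gene rows of the deposited expression tables. The study sequenced messenger RNA from 14 mouse samples in a pair of experiments. In the tissue experiment, brown adipose tissue (BAT), the heat-producing fat, was set against perigonadal white adipose tissue (WAT), a storage depot, with 4 libraries of each. In the cell experiment, a BAT cell line received blebbistatin, which blocks myosin II ATPase activity, or its DMSO vehicle, with 3 libraries of each. The labels number the replicates and do not tell whether animals or cultures were separate, so p-values measure the spread between these libraries, which may be technical.

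All tissue came from C57BL/6N mice aged 22 weeks, kept at ambient temperature and given for 14 weeks a diet with 60% of its energy from fat, so no lean control is present. All cells, vehicle included, had been induced for 3 days with dexamethasone at 2 µg/ml, T3 at 1 nM, insulin at 5 µg/ml and IBMX at 500 µM in medium with 10% serum. Rosiglitazone at 100 nM was in the mixture as well, with the remark "beige cells" in the labels. Blebbistatin at 100 µM or vehicle was then given for 24 h from day 7. The cells are a single line, and no library of undifferentiated or untreated cells was used here.

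Creatine is made in 2 enzymatic steps from arginine, glycine and a methyl group, and a plasma membrane transporter takes it up from the blood. Creatine kinases move a phosphoryl group between ATP and creatine, in the cytosol with brain-type or muscle-type subunits and in the space between the mitochondrial membranes with mitochondrial isoforms. In thermogenic fat of mice, a cycle in which phosphocreatine is made and then split without ATP being recovered has been described as a route of heat production, with Ckb and the phosphatase encoded by Alpl named as its enzymes.

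Promoter sequences are shown for the members whose levels stood furthest apart between the tissues, and for Ckb, the prevailing creatine kinase of WAT. RefSeq's table for build GRCm38.p6 held 7 of the 8 members, and Slc6a8 had no entry. Each line below is the 250 bases upstream of an annotated start, 5′ to 3′ on the strand of the gene, with capitals marking the motif letters that were searched.
Ckm, chr7:19410844-19411093, plus strand: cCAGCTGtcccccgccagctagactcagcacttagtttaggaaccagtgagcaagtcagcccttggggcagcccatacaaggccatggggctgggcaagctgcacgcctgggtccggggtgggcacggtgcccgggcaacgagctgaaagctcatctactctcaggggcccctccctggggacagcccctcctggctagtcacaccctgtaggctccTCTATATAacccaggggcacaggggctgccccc
Ckmt2, chr13:91876886-91877135, minus strand: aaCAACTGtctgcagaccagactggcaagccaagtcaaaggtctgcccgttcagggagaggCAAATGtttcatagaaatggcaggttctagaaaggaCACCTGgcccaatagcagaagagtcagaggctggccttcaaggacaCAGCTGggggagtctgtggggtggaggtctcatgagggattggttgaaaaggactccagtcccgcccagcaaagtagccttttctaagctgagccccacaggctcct
Ckb, chr12:111672339-111672588, minus strand: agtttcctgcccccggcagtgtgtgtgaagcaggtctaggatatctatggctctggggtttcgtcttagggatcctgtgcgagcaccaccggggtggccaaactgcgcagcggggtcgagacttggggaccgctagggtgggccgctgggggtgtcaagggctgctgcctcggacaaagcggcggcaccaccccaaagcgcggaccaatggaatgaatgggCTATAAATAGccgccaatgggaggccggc
Alpl, upstream start, chr4:137796385-137796634, minus strand: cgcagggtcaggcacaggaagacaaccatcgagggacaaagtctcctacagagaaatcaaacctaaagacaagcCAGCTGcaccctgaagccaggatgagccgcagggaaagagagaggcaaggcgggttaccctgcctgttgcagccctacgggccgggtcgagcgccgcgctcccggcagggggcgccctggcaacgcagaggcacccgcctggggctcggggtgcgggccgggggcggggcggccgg
Alpl, downstream start, chr4:137766476-137766725, minus strand: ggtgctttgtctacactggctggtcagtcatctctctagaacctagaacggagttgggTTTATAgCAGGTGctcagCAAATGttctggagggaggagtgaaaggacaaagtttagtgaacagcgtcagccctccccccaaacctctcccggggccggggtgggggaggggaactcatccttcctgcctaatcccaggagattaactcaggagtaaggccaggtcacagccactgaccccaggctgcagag

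The motifs searched, on both strands, were the E-box CANNTG, the MEF2 consensus, the TATA letters TATANA and the estrogen-related receptor letters AAGGTCA. Among 32851 windows of this length in the same table, 66.2% held at least 1 E-box, 3.20% the MEF2 letters, 22.6% the TATA letters and 4.08% the receptor letters. The Ckmt2 window held 4 E-boxes, a number reached by 3.84% of all windows, and none of the other letters. The Ckm window held 1 E-box and a pair of overlapping TATA matches from -33 to -26. In Ckb the run CTATAAATAG from -29 to -20 fitted the MEF2 letters and held the TATA letters. The upstream Alpl window held 1 E-box, and the downstream Alpl window held 2 together with the TATA letters. A match describes the letters and is no evidence that a factor binds there.

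Reads in genes numbered 6859404 to 16091372 in WAT, 1014959 to 2335058 in BAT, 10685378 to 14176846 in vehicle and 10920307 to 12978198 in blebbistatin libraries. Genes held 71.1% to 83.0% of a WAT library's mapped reads and 19.1% to 42.3% of a BAT library's. The library names in the file headers are formed differently for WAT and BAT, so tissue and library set cannot be told apart. The labelled tissues carried their markers. Ucp1, the uncoupling protein of brown fat, ran from 12208 to 19648 CPM (reads in genes scaled to a common library total) in BAT and from 0.138 to 1.59 CPM in WAT. It ran from 26.1 to 123 CPM in vehicle and from 8.15 to 14.3 CPM in blebbistatin cells. Levels below are CPM scaled by TMM, a correction for library composition. Fold changes are from limma's test on log2(CPM + 0.5), with Benjamini-Hochberg adjustment over all genes tested and genes under 0.05 called.

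The genes that make and import creatine were lower in BAT than in WAT, and so was Ckb, while Ckm, Ckmt2 and Alpl were higher. Of the 8 members, 7 had enough reads for the test, 3 were called higher and 4 lower in BAT, and Ckmt1 was not tested. Among all 12754 genes tested, 29.4% were called higher in BAT, 33.3% lower and 62.7% in either direction, so a call between these tissues is common. The WAT and BAT ranges did not overlap for any of the 7 members, against 58.4% of all tested genes without overlap. Ckm and Ckmt2 entered the test through their reads in BAT, since no WAT library held 10 reads of either, so the count of called members is a description and supports nothing. In bulk tissue, fewer cells of a type and less RNA per cell cannot be told apart.

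**Figure D1:**
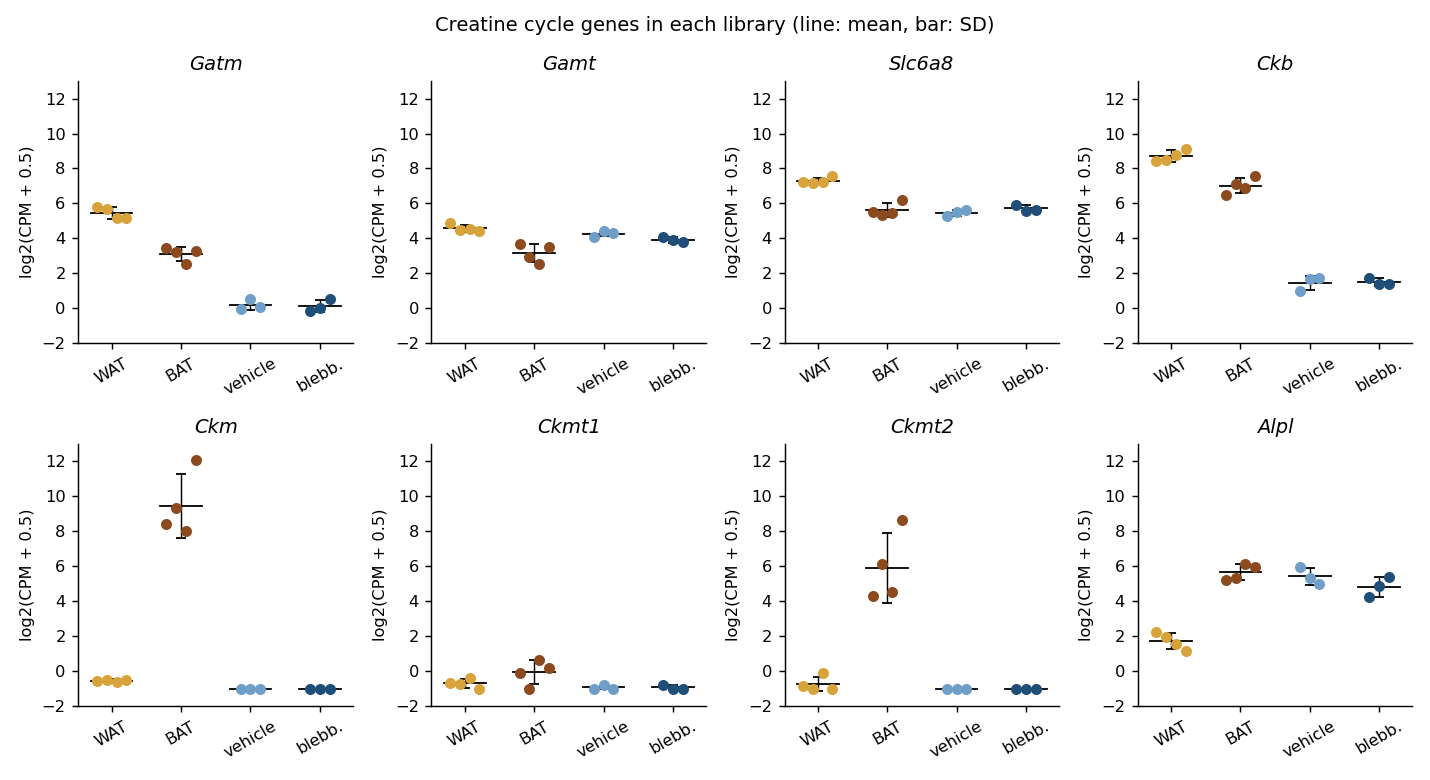
Level of each creatine cycle gene, as log2(CPM + 0.5), in every library of WAT and BAT (n = 4 each) and of vehicle- and blebbistatin-treated BAT cells (n = 3 each). Points are libraries, lines are group means and bars are SD. Gatm, Gamt, Slc6a8 and Ckb sit lower in BAT than in WAT, and Alpl, Ckm and Ckmt2 sit higher. No member was called between the cell groups, and of the 4 tested there only Gamt had ranges that did not overlap.

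Synthesis begins with Gatm, the mitochondrial enzyme that makes guanidinoacetate from arginine and glycine. Gatm (NM_025961, chromosome 2, 122420209 to 122437013, minus strand, build mm9 as for all gene positions below) measured 54.7, 50.6, 35.6 and 35.8 CPM in WAT 1 to 4, and 10.3, 8.85, 5.35 and 9.11 CPM in BAT 1 to 4. The highest BAT library stood below the lowest WAT library. The mean was 44.2 ± 9.93 (SD, n = 4) CPM in WAT and 8.40 ± 2.13 (SD, n = 4) CPM in BAT. Gatm fell by 2.34 on the log2 scale (SE 0.23, adjusted p = 2.55e-06), a 5.05-fold lower level with a 95% interval of 3.57 to 7.15. The BAT values rest on few reads, 59 in all and 5 in BAT 3.

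Gamt, which adds the methyl group to guanidinoacetate to give creatine, was lower in BAT too (NM_010255, chromosome 10, 79720896 to 79723713, minus strand). It measured 28.5, 21.8, 22.8 and 21.3 CPM in WAT 1 to 4 and 12.5, 7.19, 5.35 and 11.1 CPM in BAT 1 to 4. Again the tissues did not overlap, and BAT 3 was the lowest library, with 5 reads. The mean of 23.6 ± 3.33 (SD, n = 4) CPM in WAT compares with 9.01 ± 3.31 (SD, n = 4) CPM in BAT. The log2 fold change was -1.40 (SE 0.26, adjusted p = 4.20e-04), 2.64-fold lower with a 95% interval of 1.80 to 3.89.

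Slc6a8, the sodium- and chloride-dependent creatine transporter of the plasma membrane, followed the same order (chromosome X, 70918472 to 70927839, plus strand). WAT 1 to 4 measured 150, 141, 151 and 189 CPM, and BAT 1 to 4 measured 45.9, 39.8, 43.9 and 72.2 CPM. BAT 4 was the highest of the BAT libraries and still below every WAT library. The mean was 158 ± 21.0 (SD, n = 4) CPM in WAT and 50.5 ± 14.7 (SD, n = 4) CPM in BAT. Slc6a8 fell by 1.67 on the log2 scale (SE 0.18, adjusted p = 6.91e-06), 3.17-fold lower with a 95% interval of 2.40 to 4.19. The scaled counts are for transcript NM_001142809 and the RPKM values for NM_001142810. Their reads differ slightly, with 2550 against 2546 in WAT 1.

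Ckb, the brain-type cytosolic creatine kinase, was the member with the highest level in WAT (NM_021273, chromosome 12, 112907566 to 112910549, minus strand). WAT 1 to 4 measured 348, 357, 438 and 562 CPM, and BAT 1 to 4 measured 90.6, 139, 118 and 191 CPM. No BAT library reached the lowest WAT library. The mean was 426 ± 99.0 (SD, n = 4) CPM in WAT and 135 ± 42.7 (SD, n = 4) CPM in BAT. Ckb fell by 1.68 on the log2 scale (SE 0.22, adjusted p = 3.36e-05), 3.21-fold lower with a 95% interval of 2.29 to 4.50. Its promoter is the window above in which the TATA letters and the MEF2 letters coincide.

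Other cell types moved between the tissues along with these 4 genes. All 9 tested of 10 macrophage markers were lower in BAT, and their summed level was 444 to 1155 CPM in BAT against 12044 to 18214 CPM in WAT. All 6 white adipocyte markers were lower, at 573 to 985 CPM in BAT against 2793 to 5581 in WAT. Likewise all 5 fibroblast markers were lower, at 730 to 1181 CPM in BAT against 2587 to 3765 in WAT. The 5 tested of 8 mesothelial and epithelial markers were lower as well, at 1.66 to 9.63 CPM in BAT against 24.4 to 80.6 in WAT, with Krt19, Krt8, Msln and Upk3b at 0 reads in BAT. The part of any of these in the lower Gatm, Gamt, Slc6a8 and Ckb was not tested. General adipocyte markers were mixed, with 3 of 7 higher and 1 lower in BAT, and their sums were 29024 to 39437 CPM in BAT against 22500 to 26100 in WAT.

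Ckm, the muscle-type cytosolic creatine kinase of skeletal muscle and heart, was barely detected in WAT and abundant in BAT (NM_007710, chromosome 7, 19996443 to 20006932, plus strand). WAT 1 to 4 measured 0.177, 0.215, 0.138 and 0.203 CPM, from 8 reads in all, and BAT 1 to 4 measured 341, 646, 255 and 4223 CPM. All BAT libraries were far above all WAT libraries, and BAT 4 stood far above the other BAT libraries. The log2 fold change was 10.00 (SE 0.73, adjusted p = 1.59e-06), and 9.14 without BAT 4 (SE 0.30, adjusted p = 8.92e-09). With so few WAT reads the fitted value depends on the pseudocount. The ratio of pooled reads relative to depth was 7141, with a counting interval of 3623 to 16547 that covers counting error only. Without BAT 4 that ratio was 2357, with an interval of 1194 to 5466.

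Ckmt2, the sarcomeric mitochondrial creatine kinase, gave the same order at a lower level (NM_198415, chromosome 13, 91992992 to 92016490, minus strand). WAT 1 to 4 measured 0.0584, 0, 0.413 and 0 CPM, from 4 reads in all, and BAT 1 to 4 measured 18.9, 70.2, 22.5 and 395 CPM. BAT 4 was again the highest library by a wide margin. The log2 fold change was 6.64 (SE 0.80, adjusted p = 3.04e-05), and 5.73 without BAT 4 (SE 0.47, adjusted p = 2.19e-06). The ratio of pooled reads relative to depth was 1313, with a counting interval of 511 to 4832, and without BAT 4 it was 411, with an interval of 158 to 1524. Ckmt1, the ubiquitous mitochondrial isoform, gave 5 reads over the 4 WAT libraries and 3 over the 4 BAT libraries (NM_009897, chromosome 2, 121184377 to 121189473, plus strand). Its pooled ratio of 3.94 has a counting interval of 0.613 to 20.3, so no difference in Ckmt1 was detectable at this depth.

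The skeletal muscle markers moved with Ckm and Ckmt2 (the plot of BAT libraries relative to BAT 1 to 3). All 31 markers on the list were called higher in BAT, and their summed level was 96.7 to 105 CPM in WAT against 3580, 6749, 3823 and 47803 CPM in BAT 1 to 4. Myh4, a fast myosin heavy chain, measured 471, 1074, 444 and 7299 CPM in BAT 1 to 4 and at most 0.321 CPM in WAT. Acta1, the skeletal muscle actin, measured 505, 608, 296 and 5459 CPM in BAT 1 to 4 and 14.0 to 38.5 CPM in WAT. Tnnt3, a fast troponin T, measured 379, 669, 391 and 4930 CPM in BAT 1 to 4 and at most 0.531 CPM in WAT. BAT 4 exceeded the mean of BAT 1 to 3 by 10.1-fold for the summed muscle list, by 10.2-fold for Ckm and by 10.6-fold for Ckmt2. Single muscle genes gave a median of 10.6-fold, from 5.97 to 13.9. The same ratio was 1.65 for Ckb, 1.67 for Slc6a8, 1.33 for Gamt, 1.25 for Alpl and 1.12 for Gatm.

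**Figure D2:**
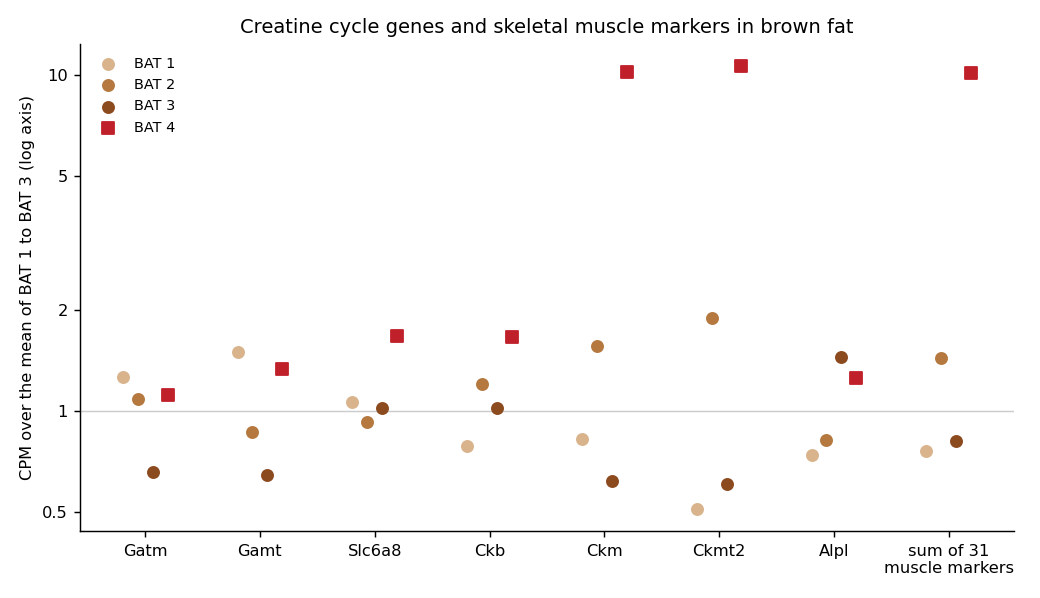
CPM of each member with a fold change in the tissues, and of the summed 31 skeletal muscle markers, in each BAT library, divided by the mean of BAT 1 to BAT 3 (log axis). BAT 4 (squares) stands at 10.2 for Ckm, 10.6 for Ckmt2 and 10.1 for the muscle sum, and between 1.12 and 1.67 for the other 5 members.

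Relative to the muscle list, Ckm differed far less between BAT libraries than it did in CPM. Per 1000 CPM of summed muscle markers it measured 95.2, 95.8, 66.6 and 88.3 CPM in BAT 1 to 4. Ckmt2 measured 5.28, 10.4, 5.88 and 8.26 CPM on the same scale, and the ratio of Ckm to Ckmt2 in CPM was 18.05, 9.20, 11.3 and 10.7. The muscle markers in BAT 1 to 3 also stood far above their levels in WAT. In WAT the list summed to 96.7 to 105 CPM with Ckm at most 0.215 CPM, so the ratio seen in BAT did not hold there. Whether any Ckm or Ckmt2 transcript came from brown adipocytes was not tested. For Gatm, Gamt, Slc6a8 and Ckb the difference was as large or larger without BAT 4, with log2 fold changes of -2.38, -1.51, -1.84 and -1.86. Ckm also shares 3952 bases with A930016O22Rik, a row on the opposite strand that held 4 reads in WAT and 3116 in BAT, and how the counting treated strand is not given in the sources used here.

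Alpl, the tissue-nonspecific alkaline phosphatase, was higher in BAT (chromosome 4, minus strand, with its 3′ end at 137297646). It measured 4.18, 3.32, 2.47 and 1.73 CPM in WAT 1 to 4 and 36.1, 39.8, 70.6 and 61.2 CPM in BAT 1 to 4. Every BAT library exceeded every WAT library, and BAT 3 and BAT 4 were the highest. The mean was 2.92 ± 1.06 (SD, n = 4) CPM in WAT and 51.9 ± 16.7 (SD, n = 4) CPM in BAT. The log2 fold change was 3.93 (SE 0.29, adjusted p = 1.89e-07), or 15.3-fold with a 95% interval of 9.92 to 23.6, and its size exceeded that of 97.6% of tested genes. Without BAT 4, the library with the highest muscle markers, the log2 fold change was 3.85 (SE 0.31, adjusted p = 2.02e-06). Muscle markers in BAT 1 to 3 still summed to 3580 to 6749 CPM, against 96.7 to 105 CPM in WAT. The part of muscle in the Alpl difference was not tested. The deposited scaled table lists the transcript NM_001287172, which starts at 137322390, and the RPKM table lists NM_007431, which starts at 137352299. Both rows hold the same reads in all 8 tissue libraries, so they do not tell the promoters printed above apart.

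Markers of vessels, nerves and brown adipocytes rose with Alpl. Of 8 endothelial markers, 7 were higher in BAT, with sums of 1200 to 1444 CPM in BAT against 352 to 443 in WAT. All 10 tested of 11 brown adipocyte markers were higher, at 18161 to 27828 CPM in BAT against 33.9 to 46.7 in WAT. Neural and Schwann markers summed to 724 to 911 CPM in BAT against 53.9 to 60.2 in WAT, with 3 of 5 tested higher and 1 lower, and Dbh, which makes noradrenaline, was at 0 reads in both. Neutrophil markers gave 1 of 3 tested lower, with sums of 5.21 to 38.1 CPM in BAT against 11.98 to 31.8 in WAT, overlapping ranges in which Ly6g and Mpo were at 0 reads in BAT. Their part in the Alpl difference was not tested.

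**Figure D3:**
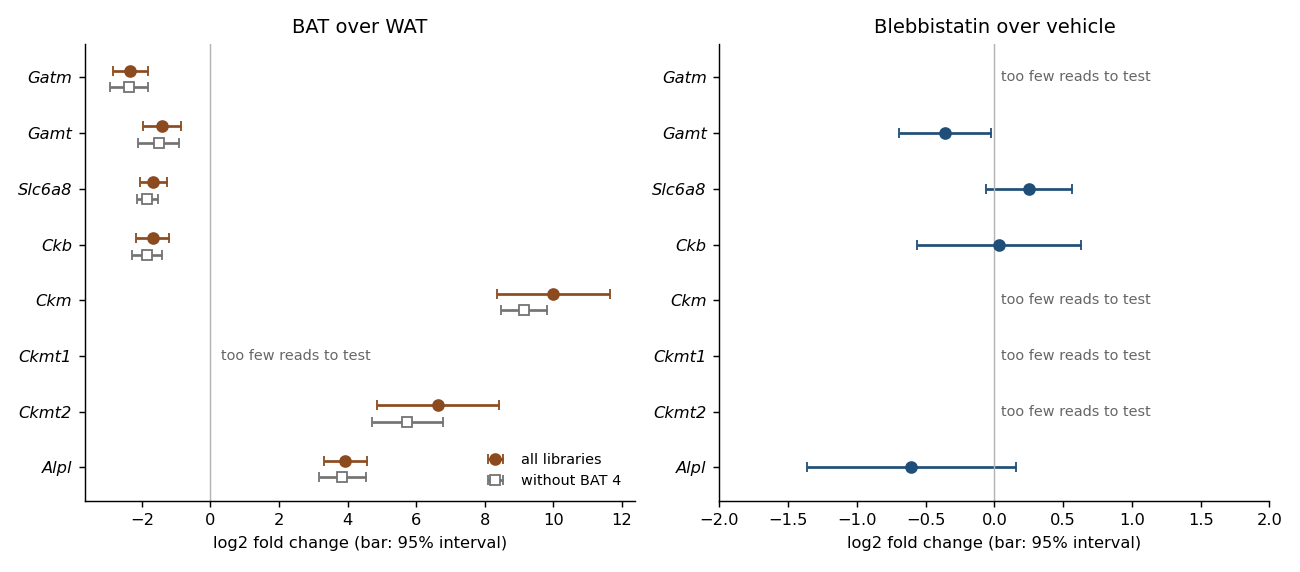
Log2 fold change of each member with its 95% interval, BAT over WAT with all libraries (circles) and without BAT 4 (squares) on the left, and blebbistatin over vehicle on the right. In the tissues no interval crosses 0 with or without BAT 4. In the cells 3 of the 4 intervals include 0, and that of Gamt runs from -0.69 to -0.02.

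On the RPKM values as deposited, which count all mapped reads, the median gene was lower in BAT by a log2 difference of -1.51, and 8.11% of called genes were higher in BAT against 46.9% on TMM-scaled CPM. All 7 tested members kept their direction and call on that scale. The log2 values were -3.75 for Gatm, -2.89 for Gamt, -3.13 for Slc6a8, -3.17 for Ckb and 2.55 for Alpl, with 9.48 for Ckm and 6.36 for Ckmt2.

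The makeup of the creatine kinase transcripts differed between the tissues. Levels of the 4 isoforms can be compared as RPKM, which is per length, and each was taken as a percent of their sum within a library. Ckb took 99.9%, 99.9%, 99.8% and 99.96% of the sum in WAT 1 to 4, and 19.4%, 15.8%, 28.9% and 3.83% in BAT 1 to 4. Ckm took 76.4%, 76.3%, 65.4% and 88.3% in BAT, and the mitochondrial isoforms, nearly all Ckmt2, took 4.12%, 7.91%, 5.74% and 7.88%. In WAT the mitochondrial isoforms took at most 0.152%. The Ckb share differed by -82.9 points, BAT minus WAT (two-sided exact permutation p = 0.0286, the lowest value possible with 70 splits). The mitochondrial share was higher by 6.36 points with the same p, and shares of a sum are not independent of each other. Ckm and Ckmt2 had 8 and 4 reads over the WAT libraries, so the separation was fixed before the test and these p-values support nothing. Every BAT library carried skeletal muscle markers, with sums of 3580 to 47803 CPM, and their part in the shares was not tested.

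With Ckm left out of the sum, the mitochondrial share was higher in BAT by 33.6 points and the Ckb share changed by -33.6 points, with the same smallest p. The Ckmt2 that remains stood in BAT 4 at 10.6-fold the mean of BAT 1 to 3, beside 10.1-fold for the muscle list. The part of muscle in this difference was not tested, and the few WAT reads of Ckmt2 fixed its p in the same way. The summed level in TPM, which is RPKM rescaled to the same total in every library, was 512, 551, 676 and 807 in WAT 1 to 4, and 532, 899, 434 and 5534 in BAT 1 to 4. Apart from BAT 4 these ranges lie on top of each other. The log2 difference was 0.72 (exact permutation test, two-sided, p = 0.6) and -0.08 without BAT 4 (exact permutation p = 0.8286). The shares did not overlap between the tissues, as the few WAT reads of Ckm and Ckmt2 had fixed, while no difference in the sum was detected. The Ckmt2 share was 4.04%, 7.91%, 5.50% and 7.87% in BAT 1 to 4, at summed muscle levels of 3580, 6749, 3823 and 47803 CPM. Most of the sum in BAT was Ckm, which moved with the muscle markers too.

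**Figure D4:**
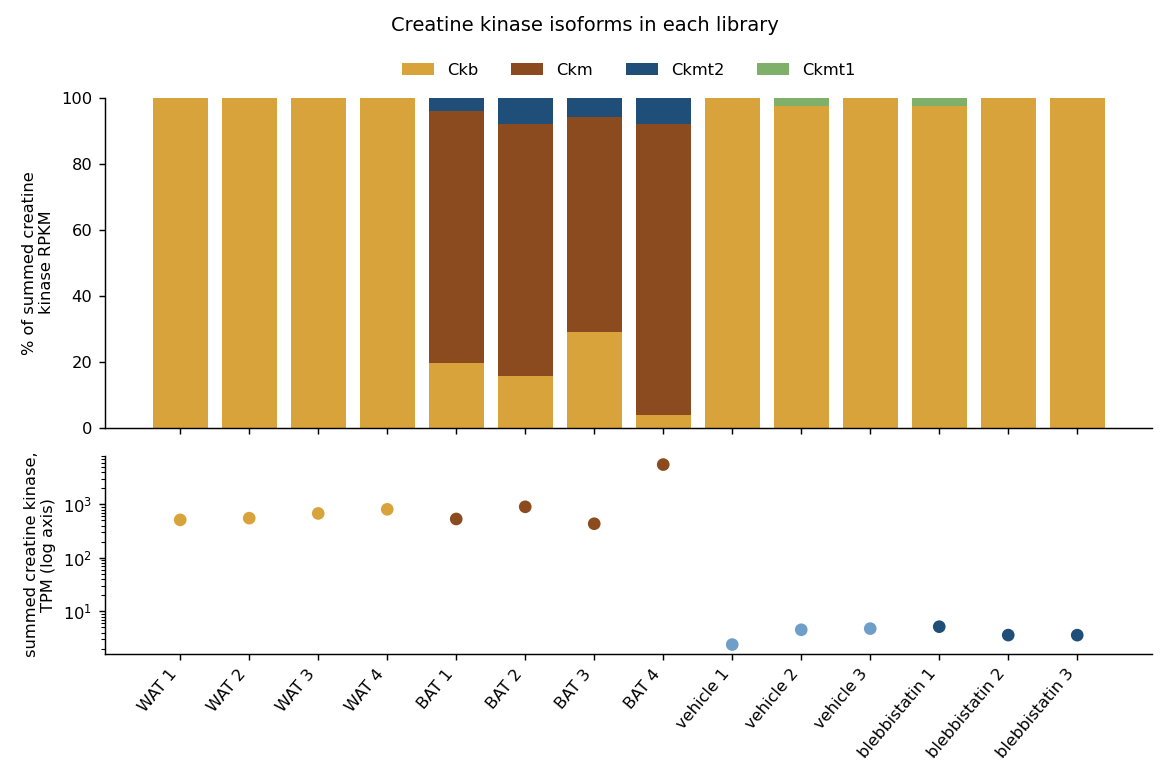
Upper panel, percent of the summed creatine kinase RPKM taken by Ckb, Ckm, Ckmt2 and Ckmt1 in each of the 14 libraries. Lower panel, the summed creatine kinase level in TPM (log axis). Ckb takes at least 97.5% in WAT and in all cell libraries and 3.83% to 28.9% in BAT, and the sum runs from 2.39 to 5.16 in the cell libraries.

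In the differentiated BAT cells no member was called with blebbistatin. Of the 8 members, 4 had enough reads for the test, and 0 were called by limma, by DESeq2 or by edgeR's quasi-likelihood test, with 1 at an unadjusted p under 0.05 in limma. Calls were rare among all 12808 genes tested, with 0.133% higher, 0.734% lower and 0.867% in either direction. The ranges of vehicle and blebbistatin did not overlap for 1 of the 4 tested members, and for 19.6% of all tested genes.

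That member was Gamt, which measured 16.7, 20.8 and 19.6 CPM in vehicle 1 to 3 and 16.5, 14.6 and 13.1 CPM in blebbistatin 1 to 3. The highest blebbistatin library lay just under the lowest vehicle library. Its log2 fold change was -0.36, with a 95% interval of -0.69 to -0.02 and an adjusted p of 0.357, so it was not called. Slc6a8 measured 38.3, 45.9 and 48.2 CPM with vehicle and 60.5, 47.7 and 49.8 CPM with blebbistatin, ranges that overlap. The log2 fold change of Slc6a8 was 0.25, with a 95% interval of -0.06 to 0.57 and an adjusted p of 0.528.

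Ckb was low in the cells, at 1.51, 2.71 and 2.83 CPM with vehicle and 2.87, 2.09 and 2.13 CPM with blebbistatin. Its log2 fold change was 0.03, with a 95% interval of -0.56 to 0.63 and an adjusted p of 0.975, and the interval leaves room for a change of up to 1.54-fold upward. Alpl varied between cell libraries of a group, at 61.7, 40.0 and 30.6 CPM with vehicle and 18.1, 28.1 and 41.6 CPM with blebbistatin. The groups overlapped, and the highest blebbistatin library exceeded 2 of the vehicle libraries. For Alpl the log2 fold change was -0.60, with a 95% interval of -1.36 to 0.16 and an adjusted p of 0.531. Its size exceeded that of 94.6% of tested genes, though it was not called. The authors' deposited table gives Alpl a log2 fold change of -0.59 with p = 0.0398 and an adjusted p of 0.611 from edgeR.

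Gatm gave 5, 13 and 6 reads with vehicle and 5, 7 and 10 with blebbistatin, too few to test. Ckmt1 gave a single read in vehicle 2 and in blebbistatin 1. Ckm and Ckmt2 gave 0 reads in all 6 cell libraries, which allows up to 0.212 to 0.281 CPM in a library, counting error only. The skeletal muscle list summed to 42.4 to 77.9 CPM with vehicle and 29.8 to 41.1 CPM with blebbistatin, and 6 of its 31 genes had 0 reads in each group. Brown adipocyte markers summed to 314 to 531 CPM and 315 to 419 CPM, and of 11 tested 0 were called. White adipocyte markers had 2 of 6 lower with blebbistatin, with sums of 470 to 500 CPM with vehicle and 369 to 448 CPM with blebbistatin. Mesothelial and epithelial markers had 1 of 3 tested lower, at 15.3 to 20.9 CPM and 4.58 to 6.11 CPM, with Cdh1, Epcam, Krt8 and Upk3b at 0 reads with blebbistatin. On the remaining lists 0 tested genes were called. Fibroblast sums were 4354 to 7153 CPM with vehicle and 3389 to 3520 CPM with blebbistatin, neural and Schwann sums were 38.7 to 42.8 and 25.6 to 26.2 CPM, and endothelial sums were 6.20 to 6.42 and 4.35 to 5.12 CPM. These sums were lower in every blebbistatin library than in every vehicle library, whereas general adipocyte sums, at 10256 to 13831 and 10185 to 14659 CPM, and macrophage sums, at 19.3 to 61.1 and 48.0 to 63.1 CPM, overlapped. Neutrophil markers summed to at most 0.189 CPM in any cell library. The part of these markers in the member values was not tested.

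Creatine kinase in these cells was almost wholly Ckb, with a mean share of 99.2% in both groups, and the difference of -0.02 points rests on single Ckmt1 reads (two-sided exact permutation p = 1, where 20 splits cannot go below 0.1).

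Across the 4 groups, levels in TPM put the members in different orders. Ckb was highest in WAT at 636 ± 133 (SD, n = 4), then in BAT at 146 ± 46.9 (SD, n = 4), and the blebbistatin and vehicle cells followed at 4.07 and 3.85 with overlapping libraries. Gatm had a like order, at 41.4 in WAT, 5.72 in BAT, 0.669 with vehicle and 0.654 with blebbistatin, and the cell groups overlapped. Gamt stood at 55.4 in WAT, 48.8 with vehicle and 39.7 with blebbistatin, each overlapping its neighbour, and at 15.5 in BAT below all of them. Slc6a8 was highest in WAT at 87.6, then 33.8 with blebbistatin and 26.9 with vehicle, which did not overlap on this scale, while vehicle and BAT at 20.4 did. Alpl reached 41.8 with vehicle, 32.8 in BAT and 29.2 with blebbistatin, all overlapping, and 2.57 in WAT. Of the members named here, the cells thus lay nearer BAT than WAT for Alpl and Slc6a8, and nearer WAT than BAT for Gamt. For Ckb and Gatm the cells lay below both tissues, with BAT the nearer. Tissue and cell tables were normalized separately, so these levels are a description with no test.

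Within a group the members also ranked differently. On the same per-length scale WAT ran from Ckb through Slc6a8, Gamt and Gatm down to Alpl at 2.57. In BAT the means were led by Ckm at 1565, with Ckb at 146, Ckmt2 at 138 and Alpl at 32.8 above Slc6a8, Gamt and Gatm. BAT 4 sets much of the Ckm and Ckmt2 means, and without it Ckm averaged 459 ± 206 (SD, n = 3), Ckb 123, Ckmt2 38.8 ± 28.0 (SD, n = 3) and Alpl 30.6 ± 11.6 (SD, n = 3). Alpl exceeded Ckmt2 in BAT 1, at 24.1 against 21.5, and in BAT 3, at 44.0 against 23.8, so these neighbours were not ordered. In vehicle cells Gamt and Alpl led, with overlapping ranges, and Slc6a8 came next.

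The genes whose profiles over the 14 libraries were nearest to each member were found by the root mean square difference of log2(CPM + 0.5), centred within each experiment, among 11595 genes tested in both. The tissue difference is part of this likeness, which is a description. Of the 31 muscle markers, 8 were tested in the cells, so the rest could not be found as neighbours. Ckm and Ckmt2 had 0 reads in the cells, so their profiles there are flat. Ckm lay nearest to Atp2a1, the calcium pump of fast muscle, at 0.50, and to Ttn, the giant sarcomere protein, at 0.77. Ckmt2 lay nearest to Actn3, an actinin of fast muscle, at 0.47, and to Pygm, the muscle glycogen phosphorylase, at 0.50. The median over all genes was 3.91 for Ckm and 2.72 for Ckmt2, and Atp2a1, Ttn, Actn3 and Pygm are on the muscle list. Alpl lay nearest to Mlxipl, a carbohydrate-responsive transcription factor, at 0.32, and to Sh2d7 at 0.32. Ckb lay nearest to Itprip at 0.17 and Pqlc1 at 0.21, and Slc6a8 to Impact at 0.16 and Ifngr2 at 0.16. Gatm lay nearest to Pip4k2a at 0.22 and Dnmt1 at 0.22, and Gamt to Slx4ip at 0.16 and Rasa4 at 0.16.

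Genes on 5 lists around the creatine cycle, holding 62 genes, were described in the same fit. Of 48 tested in the tissues, 39 were called, 23 higher and 16 lower in BAT, which is 81.3% of the lists beside 62.7% of all genes. On RPKM as deposited 32 of the 48 were called, or 66.7% of the lists beside 80.9% of all genes, so the lists did not stand on the same side of the background on both scales. The median gene of the whole table had a log2 fold change of -0.10.

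The lists on phosphoryl transfer and on transport differed in direction. Of 13 tested adenylate kinases, nucleoside diphosphate kinases, adenine nucleotide carriers and outer membrane channels, 12 were higher and 1 lower in BAT, with a median log2 fold change of 1.07. On RPKM as deposited only 5 of these 13 were called. Ak1, the cytosolic adenylate kinase that is abundant in muscle, rose from 19.2 ± 1.64 (SD, n = 4) to 215 ± 128 (SD, n = 4) CPM (log2 3.30, SE 0.29, adjusted p = 1.04e-06), and its log2 value was 2.95 without BAT 4. Ak4, a mitochondrial adenylate kinase, rose from 0.950 ± 0.414 to 6.56 ± 1.26 CPM (log2 2.32), and Nme4, a mitochondrial nucleoside diphosphate kinase, fell by 1.08 on the log2 scale. Among 7 tested transporters of related substrates, 0 were higher and 5 lower, with a median of -1.37. Slc16a12, a monocarboxylate transporter family member that carries creatine, fell from 16.8 ± 4.78 to 1.13 ± 0.884 CPM (log2 -3.60, SE 0.47, adjusted p = 2.62e-05). Its BAT values, 0 to 2.15 CPM, rest on few reads, since 3 reads there equal 1.28 to 2.96 CPM. Slc6a13, a GABA and taurine transporter, fell from 61.3 ± 22.4 to 11.9 ± 6.45 CPM (log2 -2.37).

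Lists on precursor supply and on the methyl cycle were mixed. For arginine, serine and glycine supply, 3 of 11 tested genes were higher and 6 lower, with a median of -0.88. Psat1, of serine synthesis, fell from 109 ± 24.5 to 20.1 ± 13.3 CPM (log2 -2.58), and Arg1, which splits arginine, fell by 2.45. Arg1 ran from 0 to 2.60 CPM in BAT, where 3 reads equal 1.28 to 2.96 CPM. Gcat and Shmt1, of glycine metabolism, were higher by log2 differences of 2.00 and 1.67, which on RPKM as deposited were 0.61 and 0.32 and not called. In the methyl cycle, 5 of 10 were higher and 3 lower, with a median of 0.37. Ahcyl1, related in sequence to the adenosylhomocysteine hydrolase, was higher by 1.94 on the log2 scale and by 0.46 on RPKM as deposited, where it was not called. Mat2b, the regulatory subunit of methionine adenosyltransferase, was higher by 0.78 (log2) on CPM but had -0.70 on RPKM as deposited. Ahcyl2, a close relative of Ahcyl1, fell by 1.35.

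Of 7 tested phosphatase and phosphate genes, 3 were higher and 1 lower, with a median of 0.47. Phospho1, a phosphatase of phosphocholine and phosphoethanolamine that acts beside Alpl in mineralizing tissue, rose from 29.0 ± 6.35 (SD, n = 4) to 618 ± 182 (SD, n = 4) CPM (log2 4.37, SE 0.22, adjusted p = 1.15e-08). Enpp1, which makes pyrophosphate, a substrate of the Alpl product, fell from 17.6 ± 0.887 to 1.60 ± 0.40 CPM (log2 -3.13, SE 0.25, adjusted p = 4.10e-07). Neither gene's WAT and BAT libraries overlapped. Slc20a2, a phosphate importer, was higher by 0.93 (log2) on CPM and had -0.53 on RPKM as deposited. In the cells, 0 of 47 tested genes on the 5 lists were called by limma or by edgeR's quasi-likelihood test, and the share of all genes called by limma was 0.867%. By limma, 10 of the 47 had an unadjusted p under 0.05, or 21.3% beside 12.4% of all genes. DESeq2 called 4 of the 47, namely Ak1, Ak4, Ank and Slc6a6, or 8.51% beside 3.88% of all genes.

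**Figure D5:**
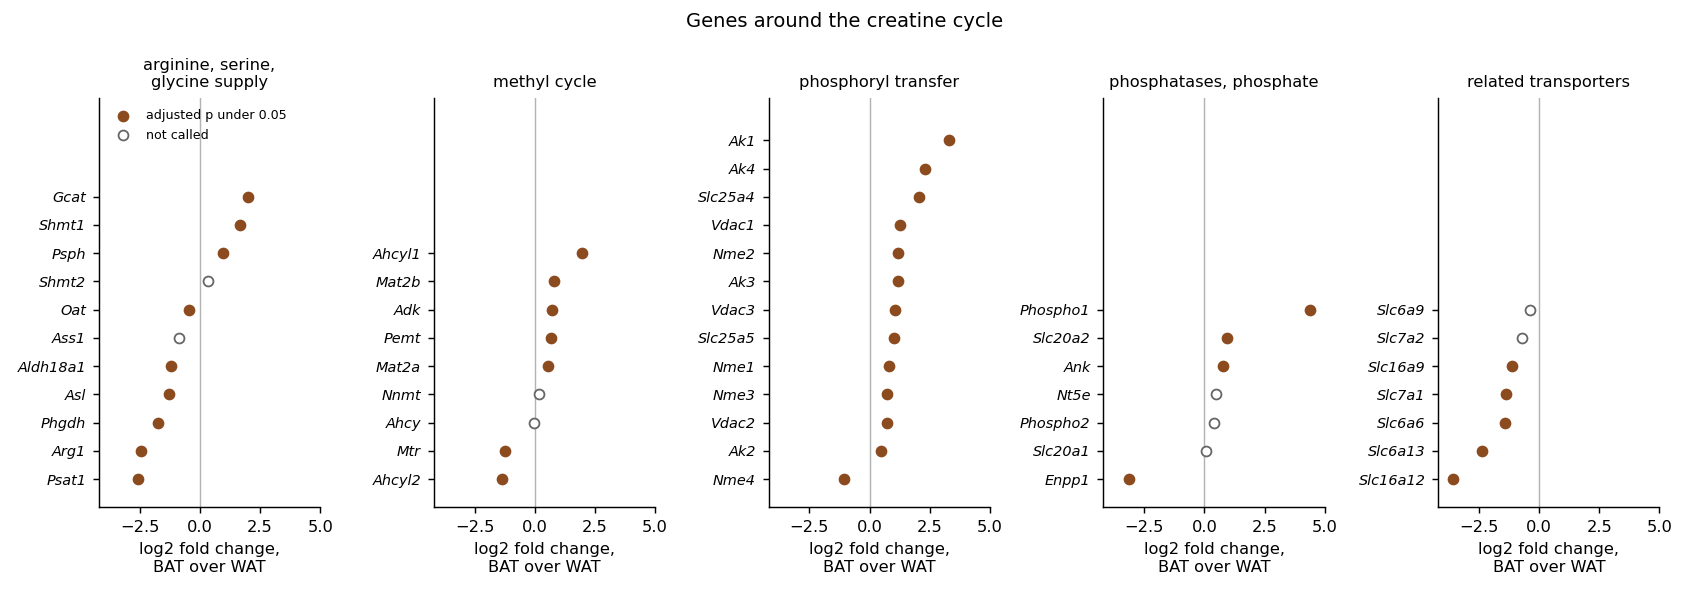
Log2 fold change, BAT over WAT, of tested genes on 5 lists around the creatine cycle. Filled points were called at an adjusted p under 0.05 and open points were not. 12 of 13 phosphoryl transfer genes lie above 0, and all 7 transporters lie below 0, of which 5 were called.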

How the data were processed

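Messenger RNA libraries of 14 samples were used, grouped by the labels' titles. The submitters' processing notes name build mm9 and the tools STAR, HOMER and edgeR, without versions. Exonic reads were counted by HOMER, condensed to a row for each gene, per the file headers. The deposited tables hold a signal (read counts scaled by 1 factor per library), the authors' log2 fold changes and edgeR p-values, and RPKM with exon lengths. From the deposited signal, 100% of values up to 1000 reads came out whole within 0.1 read, so reads were recovered. BAT libraries, with 1014959 to 2335058 reads, give the least precise values.

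Genes entered by filterByExpr (minimum count 10, total 15). Group was the only term of limma 3.58.1's trended, robust fit (R 4.3.3), run for each experiment. A run on simulated data held fewer changed genes than the tissues and no change as large as those of Ckm and Ckmt2. It does not cover such changes. A pseudocount of 0.5 understates the change of low genes. Alternatives were no TMM, RPKM + 0.1 as deposited or median-centred, DESeq2 1.42.0 and edgeR 4.0.16 on recovered reads, no filter, other pseudocounts, a replicate block, and leaving out each library. Counting intervals are 95%, and floors are 3 reads. For the cells, 3 more libraries appear in an RPKM header and were not analysed here. A deposited sheet that repeats some tissue RPKM values was not used.

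The members, the 10 cell type marker lists and the 5 pathway lists were chosen with earlier results of these data known. Genes named were all members, per pathway list the 2 largest rises and 2 largest falls among called genes (1 of each in the cells), the 2 nearest profiles per called member, and the 3 muscle markers highest in BAT. For the methyl cycle, 1 gene that the rule names is not reported here. Ank, Slc6a6 and A930016O22Rik, and the marker genes at 0 reads, were named after their values were seen.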

Additional observations from a re-analysis of the deposited data

Results flagged for a closer look

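The sets of 4 libraries examined numbered 40 (members, marker sums and creatine kinase shares in WAT and in BAT). In 5 of them a library's gap to the nearest of the others was above Dixon's 95% critical value. That value flags about 1 in 20 sets of independent, normal values. The sets here share libraries and some rest on few reads, so the 5 cannot be set against that rate. In BAT 4, Ckm stood at 4223 CPM against 255 to 646 CPM in the other BAT libraries. Ckmt2 stood in the same library at 395 CPM against 18.9 to 70.2 CPM. The summed skeletal muscle markers stood there at 47803 CPM against 3580 to 6749 CPM. In WAT 3, Ckmt2 stood at 0.413 CPM, which is 3 reads, against 0 to 0.0584 CPM in the other WAT libraries. In BAT 1, the summed macrophage markers stood at 1155 CPM against 444 to 491 CPM.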

How the results depend on the processing

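In the tissues, all 119 values of the 7 tested members under the alternatives kept their direction and call, with the largest spread for Ckm, 8.33 to 12.89 on the log2 scale, and Ckmt2, 4.87 to 10.23. In the cells, 58 of 60 member values kept direction and side, and Ckb ranged from -0.199 (without vehicle 1) to 0.163 over left-out libraries, with -0.094 without blebbistatin 1. On RPKM as deposited Mat2b turned to -0.70 (adjusted p = 0.0757) and Slc20a2 to -0.53 (adjusted p = 0.128), while Gcat, Shmt1 and Ahcyl1 lost their call. That scale carries the tissues' different shares of reads outside genes, and the cause was not tested further.

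The summed creatine kinase level ranged over left-out libraries from -0.081 (without BAT 4) to 1.14 on the log2 scale in the tissues and from -0.193 (without vehicle 1) to 0.302 in the cells, where it was -0.050 without blebbistatin 1, an alternative chosen after seeing the data. Leaving out libraries moved the mitochondrial share of creatine kinase from 5.86 to 7.12 points in the tissues and from -0.80 to 0.82 points in the cells, and the Ckb share from -86.9 to -78.5 and from -0.82 to 0.80 points. In the cells the mitochondrial share turned to -0.378 or -0.801 and the Ckb share to 0.378 or 0.801.

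Deviations from the group mean correlated between same-numbered libraries at -0.0369, -0.00291, -0.0164 and 0.0733 in the tissues and at -0.49, 0.318 and -0.258 in the cells. With so few libraries these values cannot settle whether the numbers pair the samples. With the replicate block, the share differences of 6.36 and -82.9 points had an exact permutation p of 0.125, the smallest that 4 pairs allow. Genes called in the cells numbered 111, against 73 without TMM, 30 on RPKM as deposited, 497 with DESeq2, 30 with the replicate block and 13 to 321 with a library left out (13 without vehicle 2, 321 without vehicle 1). Genes called on the pathway lists in the cells numbered 0, against 1 without TMM (Slc6a6), 4 with DESeq2, 1 without the filter (Slc6a13) and 0 to 1 with a library left out. Without TMM, 38.9% of called tissue genes were higher in BAT, and 54.7% on median-centred RPKM, against 46.9%.

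Among the members, depth limits Gatm and Gamt in BAT 3, Ckmt1 everywhere, and Ckm and Ckmt2 in WAT. Pathway genes are limited too, among them Arg1, Slc16a12 and Enpp1 in BAT, where the floors are 1.28 to 2.96 CPM. Ak4 in WAT, at 0.413 to 1.42 CPM, lies near floors of 0.186 to 0.437 CPM. The pooled read ratios and mean TPM of Ckm and Ckmt2 without BAT 4 were likewise chosen after seeing the data.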
